A study of Mus musculus with 6 samples.

Results

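YAP, TAZ and TEAD pathway genes were followed through the acetylation of histone H3 (H3ac) in mouse mesenchymal stem cells (MSCs). The 10 genes were Yap1, Wwtr1 (which encodes TAZ), Tead1, Tead2, Tead3, Tead4, Ankrd1, Amotl2, Lats1 and Lats2. Their regions were those of the deposited H3ac table that overlapped a gene body extended by 5 kb on each side, which gave 28 of 24431 regions. A region was called a promoter region when it held, or came within 1 kb of, a start of a protein-coding transcript. This applied to 12 of the 28 regions, and the other 16 lay over introns and exons of the genes, with 1 of them, at the end of Tead3, reaching past the gene. The rule itself uses gene positions and no H3ac value.

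H3ac was profiled by CUT&RUN, in which an antibody tethers a nuclease to marked chromatin in permeabilised cells and the cut fragments are sequenced. The Young libraries came from untreated MSCs of mice aged 3 to 5 months, and the Old libraries came from untreated MSCs of mice aged 18 to 22 months. The OldAcetate libraries came from MSCs of mice aged 18 to 22 months that were given 5 mM sodium acetate for 3 days. Each group had 2 libraries, and every culture was held at 2% oxygen in medium with 10% FBS and antibiotics. The comparisons ask how H3ac at these genes differs with age and with acetate, a substrate for the acetyl-CoA that feeds histone acetylation. The labels do not say whether the 2 libraries of a group came from separate animals, so the p-values measure only the spread between these libraries. Cells are pooled in each library, so fewer cells carrying the mark and less mark per cell cannot be told apart.

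The Hippo pathway controls growth, cell shape responses and fate choice. When the LATS kinases are active they phosphorylate YAP and TAZ, which are then kept in the cytoplasm or degraded. When they are inactive, YAP and TAZ enter the nucleus and bind TEAD factors, which recognise DNA and carry them to target genes. In MSCs, YAP and TAZ are known for responding to the stiffness of the substrate and for roles in the choice between bone and fat fates.

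The TEAD factors recognise the letters CATTCC, the MCAT element, whose reverse complement is GGAATG. Both spellings were searched in the 300 base windows that RefSeq gives around each start (250 bases before and 50 after, GRCm38.p6). Windows were matched for 8 of the 10 genes, and none was matched for Tead1 and Tead4. The motif was found in at least 1 window of 6 of the 8 genes, namely Yap1, Wwtr1, Tead3, Ankrd1, Amotl2 and Lats2. Over all 27025 genes with a window, 16.6% held it. The 8 genes had on average 1.50 windows each and all genes had 1.22. A match is a description of the letters and not evidence of binding. The sites are shown because they lie under the H3ac regions described below. Each has 12 bases on either side, reads in the direction of the gene, and has the motif in capitals.
Yap1 (chr9:8004720-8004749, minus strand): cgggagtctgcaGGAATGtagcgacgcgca
Wwtr1 (chr3:57576029-57576058, minus strand): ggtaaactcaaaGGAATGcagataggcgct
Tead3 (chr17:28350970-28350999, minus strand): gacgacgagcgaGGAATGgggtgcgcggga
Tead3 (chr17:28350706-28350735, minus strand): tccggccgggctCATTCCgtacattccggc
Ankrd1 (chr19:36120037-36120066, minus strand): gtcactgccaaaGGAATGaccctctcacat
Ankrd1 (chr19:36119950-36119979, minus strand): gacactaagtctGGAATGaaaattcacctg
Amotl2 (chr9:102717727-102717756, plus strand): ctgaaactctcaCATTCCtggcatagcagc
Lats2 (chr14:57746102-57746131, minus strand): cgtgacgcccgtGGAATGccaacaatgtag

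The paralogous coactivator genes held the same spelling. The first motif base lay at -141 from the RefSeq start in Yap1, and in Wwtr1, which has 2 RefSeq starts here, at -136 from 1 and -170 from the other. Ankrd1 held a pair of sites, at -210 and -123. The second Tead3 site shown lies at -123 from its start, and its line also holds another motif copy in lower case, at -114. A further Tead3 copy, at 3 after that start, is not shown.

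Most start windows of these genes were CpG-rich. Of the 12 windows, 9 had an observed to expected CpG ratio of at least 0.6, and 35.8% of all 32851 windows did. The ratio was 1.23 at Yap1 and 1.05 at Lats1, and it was lowest at the downstream Lats2 window (0.293) and at Ankrd1 (0.312). The stretches upstream of Yap1 and Lats1 are shown because they are the most CpG-rich of the members and differ in the motif, with 1 copy in Yap1 and none in Lats1. Both end at the first annotated exon.
Yap1 (chr9:8004597-8004846, minus strand): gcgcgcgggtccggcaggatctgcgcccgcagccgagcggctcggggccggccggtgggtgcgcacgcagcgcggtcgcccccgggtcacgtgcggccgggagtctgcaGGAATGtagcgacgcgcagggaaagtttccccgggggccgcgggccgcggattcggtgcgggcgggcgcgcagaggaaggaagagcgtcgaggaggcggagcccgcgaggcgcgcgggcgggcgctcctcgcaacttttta
Lats1 (chr10:7680959-7681213, plus strand): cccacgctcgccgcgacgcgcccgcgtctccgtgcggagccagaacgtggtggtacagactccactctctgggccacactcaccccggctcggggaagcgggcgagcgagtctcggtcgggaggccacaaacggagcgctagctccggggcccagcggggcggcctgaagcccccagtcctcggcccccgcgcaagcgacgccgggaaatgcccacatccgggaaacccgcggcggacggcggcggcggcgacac

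At least 1 H3ac region was found at every member gene. The 28 regions covered 378 kb and were longer than most, with a median of 11.5 kb against 5.50 kb over all regions. Their median level per length was 2.59 RPM per kb (RPM is the read count scaled to the library total), close to the 2.70 of all regions. Read support in a single library ran from 13 reads at Tead2 to 302 at the Lats2 promoter region, so counting error alone was between 27.7% and 5.75% of a value. Across whole regions, which are far longer than the windows above, the motif density of the members was 0.5 per kb and that of all regions 0.571.

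Of the whole series, 3 facts touch these genes. Reads falling in regions made up 45.9% to 64.8% of a library, with the Old libraries lowest and Young replicate 1 highest. As deposited, the median region was lower in Old than in Young by -0.35 on the log2(RPM + 0.5) scale, higher in OldAcetate than in Old by 0.24, and lower in OldAcetate than in Young by -0.11. The fold changes called scaled below are relative to that shared shift, which was removed from each library before the limma fit, and those called as deposited still hold it. Promoter regions were present at 9 of 9 MSC marker genes, at 2 of 7 hematopoietic marker genes and at 0 of 4 endothelial marker genes. The hematopoietic pair summed to 29.4 and 32.2 RPM in the Young libraries, 15.5 and 20.3 in Old and 17.5 and 22.9 in OldAcetate, against 543 to 771 for the MSC markers over all 6 libraries, and its part in the results was not tested.

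Yap1 encodes the coactivator YAP. Its promoter region (chr9:7994001-8006500) held 40.1 and 46.6 RPM in the Young libraries, 35.6 and 36.6 RPM in Old, and 40.7 and 40.04 RPM in OldAcetate. Old lay below both other groups as deposited, while OldAcetate overlapped Young. Relative to all regions the difference between Old and Young was 0.09 (SE 0.15, limma adjusted p = 0.970), and between OldAcetate and Old it was -0.08 (SE 0.15, limma adjusted p = 0.971). Both signs are the reverse of those as deposited, which were -0.26 and 0.16. The 3 other Yap1 regions lay between 17.1 and 61.6 kb after the start and had levels from 2.09 to 2.80 RPM per kb, below the 3.19 of the promoter region.

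Wwtr1 encodes TAZ, the paralog of YAP. Its promoter region (chr3:57564001-57578000) held 47.4 and 42.9 RPM in Young, 42.1 and 31.0 RPM in Old, and 47.4 and 40.5 RPM in OldAcetate. The Old libraries were spread widely, yet both stayed below both Young libraries as deposited, and 1 of them lay inside the OldAcetate range. Scaled differences were 0.03 (SE 0.15) for Old vs Young and 0.04 (SE 0.15) for OldAcetate vs Old, with limma adjusted p values of 0.992 and 0.988. The region with the highest level of Wwtr1 was not the promoter region but a domain of 29.0 kb that begins 61.4 kb into the gene (chr3:57485501-57514500). It held 92.5 and 75.6 RPM in Young, 60.1 and 70.0 RPM in Old, and 80.0 and 87.6 RPM in OldAcetate. Per length it stood at 2.68 RPM per kb, below the 2.99 of the promoter region.

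**Figure D1:**
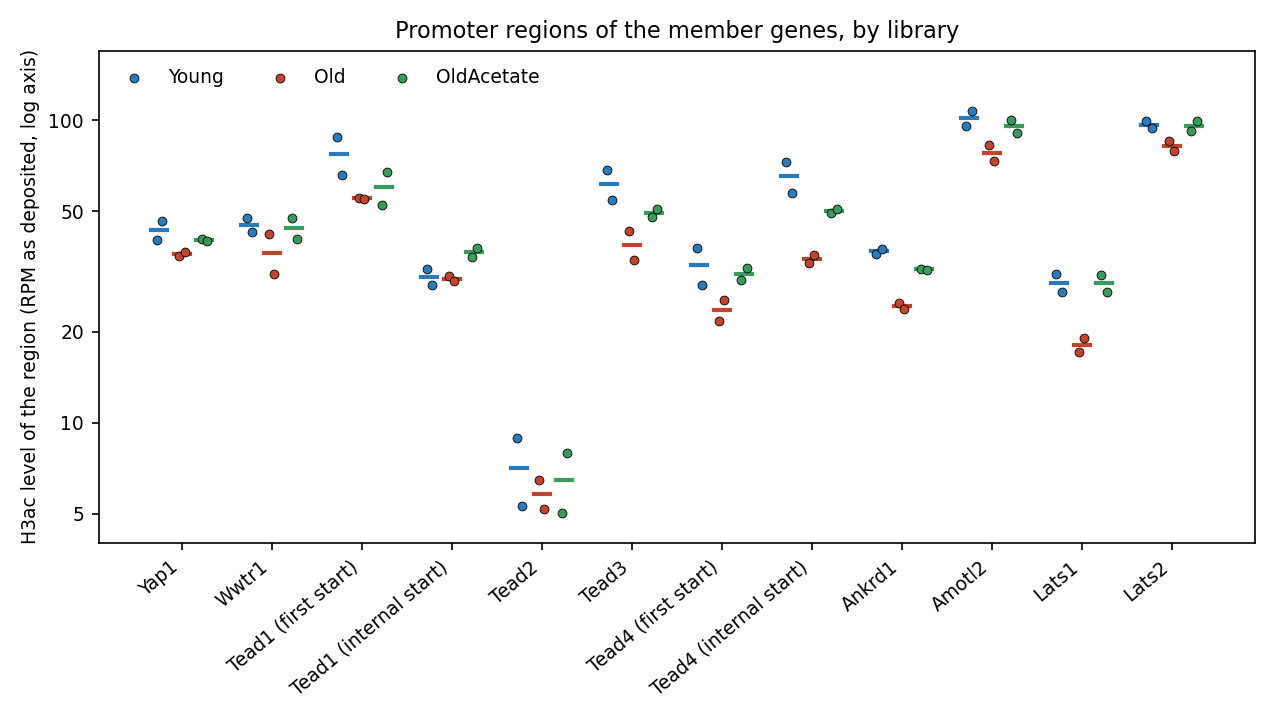
H3ac level (RPM as deposited, log axis) of the 12 promoter regions, with 1 point per library and a bar at the mean of each group (n = 2). Old sits lowest by mean in every region, from 5.82 RPM at Tead2 to 82.3 RPM at Lats2, and OldAcetate lies between Old and Young by mean in 10 of the 12.

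The TEAD genes held the widest range of scaled differences between Old and Young among the members. Tead1 was the most extensively marked gene, with 8 regions over 94.5 kb, and it was the gene with the most annotated coding starts, 7. Its first promoter region (chr7:112677501-112704000) held 88.2 and 66.2 RPM in Young, 55.5 and 54.9 RPM in Old, and 52.4 and 67.6 RPM in OldAcetate. Both Old libraries lay below both Young libraries, and OldAcetate spanned the Old values. The scaled difference between Old and Young was -0.12 (SE 0.13, limma adjusted p = 0.956).

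Deeper in Tead1, 4 of the 7 other regions had scaled Old vs Young values below 0 like the first, from -0.29 to -0.10, and 3 had values above 0. The second promoter region, over internal starts 74.2 to 91.7 kb into the gene (chr7:112753501-112771000), held 32.2 and 28.6 RPM in Young, 30.5 and 29.4 RPM in Old, and 35.3 and 38.0 RPM in OldAcetate. As deposited, Young and Old overlapped and OldAcetate lay above both. Relative to all regions it was higher in Old by 0.33 (SE 0.16, limma adjusted p = 0.894) and higher in OldAcetate than in Young by 0.38 (SE 0.16, limma adjusted p = 0.964).

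An exon region of Tead1 126 to 135 kb into the gene (chr7:112805501-112814500) had the largest scaled difference of any member region between OldAcetate and Young. It held 19.1 and 14.3 RPM in Young, 19.0 and 17.9 RPM in Old, and 22.5 and 22.1 RPM in OldAcetate. As deposited, Young overlapped Old and OldAcetate lay above all 4 other libraries. The scaled difference was 0.53 (SE 0.21, unadjusted p = 0.013, limma adjusted p = 0.964) for OldAcetate vs Young, and 0.50 (SE 0.21, limma adjusted p = 0.855) for Old vs Young. Within 1 gene, the scaled difference between Old and Young thus ran from -0.29 to 0.50 over the 8 regions, and none passed the test. Differences between regions of a gene were not tested.

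Tead2 had the lowest summed RPM of the member genes. Its only region, at the start (chr7:45215001-45217500), held 8.88 and 5.31 RPM in Young, 6.47 and 5.17 RPM in Old, and 5.04 and 7.92 RPM in OldAcetate. All 3 groups overlapped, and with 13 to 27 reads per library the 95% interval of the scaled Old vs Young difference ran from -0.61 to 0.84. It was also the shortest member region, at 2.50 kb, and per length it stood at 2.59 RPM per kb, close to the median of the members.

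Summed over the regions of each gene, Tead3 and Tead4 had the lowest Old levels relative to Young among the TEAD genes. The Tead3 promoter region (chr17:28338501-28352500), which also overlaps Tulp1, held 68.8 and 54.7 RPM in Young, 43.0 and 34.6 RPM in Old, and 48.1 and 50.9 RPM in OldAcetate. The 3 groups did not overlap as deposited, with OldAcetate in between. The scaled difference between Old and Young was -0.31 (SE 0.14, unadjusted p = 0.026, limma adjusted p = 0.883), and between OldAcetate and Old it was 0.12 (SE 0.14, limma adjusted p = 0.936). The second Tead3 region overlaps Fance and the start of the ribosomal protein gene Rpl10a, so its signal cannot be assigned to Tead3.

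At Tead4 the larger region lay over an internal start, 9.82 to 26.8 kb into the gene (chr6:128274001-128291000). It held 73.0 and 57.6 RPM in Young, 33.7 and 35.8 RPM in Old, and 49.4 and 50.9 RPM in OldAcetate. Every Old library lay below every OldAcetate library, and every OldAcetate library below every Young library, also after scaling. The mean of Old was 53.2% of the mean of Young as deposited. Relative to all regions the difference was -0.54 (SE 0.14, 95% interval -0.82 to -0.26), with a limma adjusted p of 0.463. Its unadjusted limma p-value, 0.00025, was the lowest of the member regions. Leaving out each library in turn moved it between -0.64 and -0.44. OldAcetate was higher than Old by 0.28 (SE 0.14, unadjusted p = 0.044, limma adjusted p = 0.787).

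The region at the first Tead4 start (chr6:128295001-128302000) held 37.8 and 28.6 RPM in Young, 21.7 and 25.5 RPM in Old, and 29.6 and 32.5 RPM in OldAcetate. Old again lay below both other groups as deposited, and Young and OldAcetate overlapped. Its scaled difference between Old and Young was smaller, -0.13 (SE 0.18, limma adjusted p = 0.964). Per length it was the most strongly marked promoter region of the 12, at 4.18 RPM per kb against 2.95 at the internal start.

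**Figure D2:**
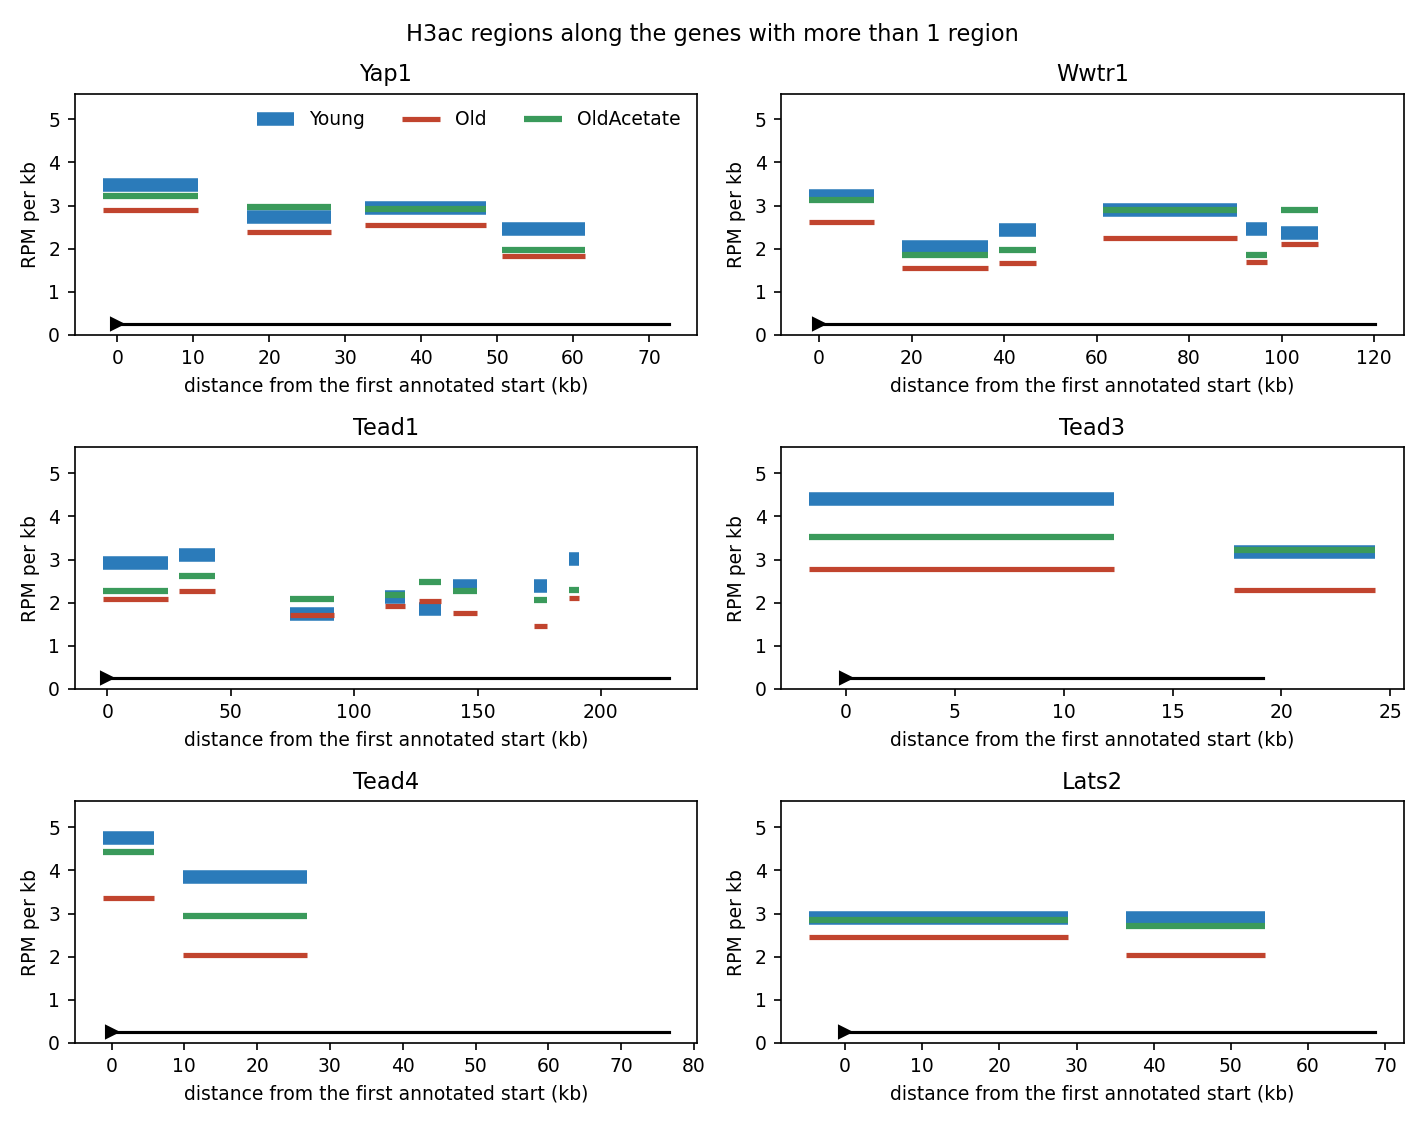
Mean H3ac level per length (RPM per kb, n = 2 per group) of each region of the 6 genes with more than 1 region, against distance from the first annotated start in the direction of the gene (kb); thick bars are Young, thin bars Old and OldAcetate, and the black line with an arrowhead is the gene body. The Old bar of the Tead4 internal start lies at 2.05 RPM per kb under 3.84 in Young, while the Tead1 exon region at 126 to 135 kb has Young lowest, at 1.85.

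Ankrd1, a cardiac and muscle ankyrin repeat protein gene, is a standard readout of YAP and TAZ activity. A single region of 12 kb (chr19:36109501-36121500) covered the whole gene and both motif sites shown above. It held 36.2 and 37.6 RPM in Young, 25.0 and 23.9 RPM in Old, and 32.3 and 32.1 RPM in OldAcetate. As deposited, the replicates of each group nearly coincided and no pair of groups overlapped. After scaling, Young (30.5 and 35.5) overlapped OldAcetate (30.9 and 31.2), and Old (27.3 and 28.4) still lay below both groups. Relative to all regions, Old vs Young was -0.24 (SE 0.17, limma adjusted p = 0.924) and OldAcetate vs Old was 0.15 (SE 0.17, limma adjusted p = 0.932).

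Amotl2, a target gene whose angiomotin-like product binds YAP and holds it out of the nucleus, had the highest promoter values of the members in RPM, together with Lats2. Its region of 33.5 kb (chr9:102709501-102743000) contained the whole gene and held 96.1 and 107 RPM in Young, 83.2 and 73.2 RPM in Old, and 100.5 and 90.5 RPM in OldAcetate. Old lay below both other groups as deposited, and OldAcetate overlapped Young. The scaled differences were -0.03 (SE 0.11) for Old vs Young and 0.05 (SE 0.11) for OldAcetate vs Old, with limma adjusted p values of 0.990 and 0.98.

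Lats1 and Lats2 encode the kinases that phosphorylate YAP and TAZ, and Lats2 is itself a target gene. The Lats1 region (chr10:7678001-7685000) held 30.9 and 27.0 RPM in Young, 17.1 and 19.1 RPM in Old, and 30.9 and 27.1 RPM in OldAcetate. The Old libraries lay well below the rest, and the Young and OldAcetate values were nearly superposed. Old stood at 62.5% of Young, and OldAcetate at 160% of Old, the highest ratio of any member gene. The scaled difference between OldAcetate and Old was 0.43 (SE 0.19, 95% interval 0.05 to 0.80, unadjusted p = 0.026), and the limma adjusted p was 0.771. Old vs Young was -0.31 (SE 0.19, limma adjusted p = 0.907). The region also overlaps Nup43 and Pcmt1, so its signal cannot be assigned to Lats1 alone.

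The Lats2 regions also overlap the gene model Gm49361. The Lats2 promoter region (chr14:57729501-57763000) held 99.4 and 94.4 RPM in Young, 85.5 and 79.1 RPM in Old, and 92.1 and 99.3 RPM in OldAcetate. Old lay lowest as deposited, but by less than the shared shift, and the scaled Old vs Young difference was 0.12 (SE 0.10, limma adjusted p = 0.940). The intron region 36.4 kb into the gene (chr14:57704001-57722000) held 57.2 and 47.0 RPM in Young, 36.5 and 36.6 RPM in Old, and 44.7 and 53.0 RPM in OldAcetate. Here Old was also lowest in the scaled values, at -0.15 (SE 0.14, limma adjusted p = 0.944). The kinase genes had scaled Old vs Young differences of opposite sign at their promoter regions, though neither passed the test.

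Across the 28 regions, none passed the scaled limma test at an adjusted p of 0.05 in any comparison. The shares of all regions that passed were 0.00819% (Old vs Young), 0% (OldAcetate vs Old) and 0% (OldAcetate vs Young). At the same threshold edgeR on the recovered reads called 0 member regions in each comparison. At an unadjusted p under 0.05 there were 4 member regions in Old vs Young, 2 lower and 2 higher, while 5.54% of all regions were at that level. OldAcetate vs Old gave 2 such regions, beside 6.24% of all regions, and OldAcetate vs Young gave 2, beside 5.08%. All 4 of these values were higher in OldAcetate. The lower pair in Old vs Young was the Tead4 internal start and Tead3, and the higher pair was the internal start and exon region of Tead1. In OldAcetate vs Old they were Lats1 and the Tead4 internal start.

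The median scaled change of the members was -0.08 for Old vs Young, 0.04 for OldAcetate vs Old and 0.02 for OldAcetate vs Young. In the same order, the medians of all regions were -0.0045, 0.0018 and 0.0015. The 12 promoter regions gave -0.07, 0.05 and 0.02, beside -0.0059, 0.051 and 0.048 for all promoter regions. The 16 other regions gave -0.08, 0.02 and 0.03, beside -0.0034, -0.044 and -0.045 for all regions away from starts. After scaling, the groups did not overlap at 8 member regions in Old vs Young (3 higher, 5 lower), at 5 in OldAcetate vs Old, all higher, and at 10 in OldAcetate vs Young (5 higher, 5 lower). Over all regions this share was 34% for Old vs Young, 33.9% for OldAcetate vs Old and 35.8% for OldAcetate vs Young. With 2 libraries against 2, an exact permutation test cannot go below p = 0.333.

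**Figure D3:**
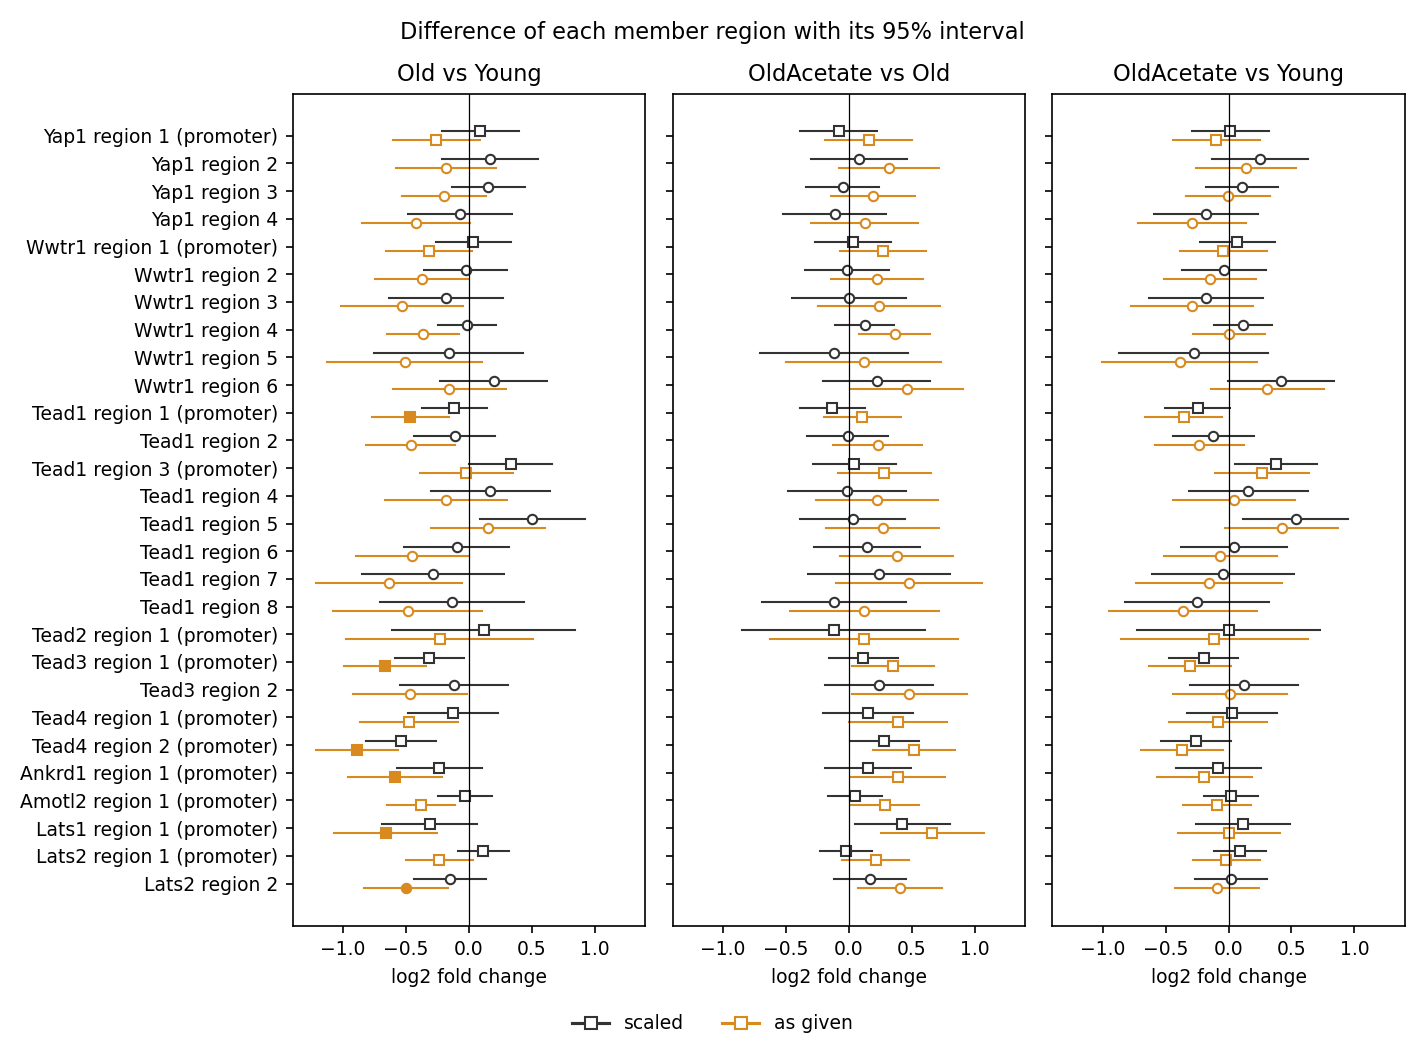
Log2 fold change of each of the 28 member regions with its 95% limma interval, in 3 panels for the 3 comparisons, scaled (black) and as deposited (orange); squares are promoter regions, circles other regions, and filled symbols have a limma adjusted p under 0.05. Only 6 orange symbols in Old vs Young are filled, and the scaled value of the Tead4 internal start, -0.54, is farthest from 0.

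As deposited, 1 of the 28 regions, the Tead1 exon region, had a higher log2 mean in Old than in Young, beside 7.85% of all regions. In OldAcetate vs Old all 28 had a higher mean, beside 83.2% of all regions. In Old vs Young, 6 of 28 passed the limma test as lower, beside 9.5% of all regions. These were the first Tead1 promoter region at -0.47 (adjusted p = 0.041), Tead3 at -0.66 (adjusted p = 0.013), the Tead4 internal start at -0.89 (adjusted p = 0.0030), Ankrd1 at -0.59 (adjusted p = 0.039), Lats1 at -0.66 (adjusted p = 0.033) and the Lats2 intron region at -0.50 (adjusted p = 0.045). Long regions passed more often in the series as a whole, 21% of those of 10 kb or more and 5.7% of the shorter ones, and of the members 5 of 16 and 1 of 12 did. The count rested on single libraries. It was 0 of 28 without Young replicate 1 (0.0368% of all regions), 1 without Old replicate 2 (2.01% of all regions), 2 without OldAcetate replicate 1 (2.62%) and 2 without OldAcetate replicate 2 (2.95%). It was 5 without Old replicate 1 (13.3%) and 6 without Young replicate 2 (8.69%).

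In OldAcetate vs Old, 0 of 28 passed as deposited, although 10 were higher at an unadjusted p under 0.05, beside 17.7% of all regions. Of all regions, 0.311% passed as higher. In OldAcetate vs Young, 0 of 28 passed, beside 0% of all regions, and 2 members were lower at an unadjusted p under 0.05, beside 5.62% of all regions. As deposited, 19 of 28 member regions had both Old libraries below both Young libraries (60.2% of all regions), 19 of 28 had both OldAcetate libraries above both Old libraries (47.1%), and 8 of 28 had both OldAcetate libraries below both Young libraries (29.8%). Of the members 57.1% were 10 kb or more, and of all regions 24.8%. Shares among long regions alone were not taken for the counts in this paragraph.

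Summed over the 28 regions, H3ac was 1175 and 1030 RPM in the Young libraries, 834 and 834 RPM in Old, and 1010 and 1041 RPM in OldAcetate. The Old libraries were nearly equal and lay below the rest. The mean of Old was 75.6% of Young where the sum over all regions gave 78.1%, and OldAcetate stood at 123% of Old where all regions gave 119%. As a share of the signal in regions, the members took 0.180% of the Young libraries (SD 0.0021, n = 2), 0.174% of Old (SD 0.010, n = 2) and 0.181% of OldAcetate (SD 0.0061, n = 2). These shares overlapped between all groups.

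By gene, the summed level of Old ran from 59.2% of Young at Tead4 to 83.5% at Yap1. OldAcetate ran from 111% of Old at Tead2 to 160% at Lats1. Old stood at 62.5% of Young at Lats1, 65.1% at Tead3 and 66.2% at Ankrd1, and OldAcetate stood at 139%, 131% and 132% of Old at Tead4, Tead3 and Ankrd1. The Tead3 sum holds the region shared with Fance and Rpl10a, and its promoter region alone gave 62.8% and 128%. Both ratios hold the same Old libraries, so a low Old value enters both.

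**Figure D4:**
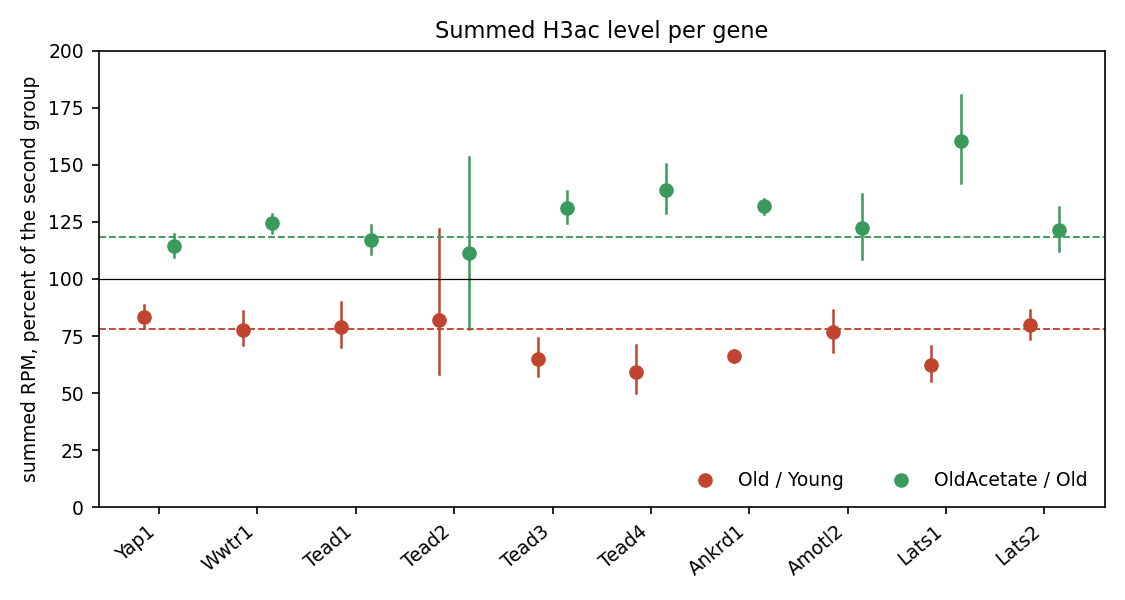
Summed H3ac level of the regions of each gene, as the ratio of group means (points, percent) for Old to Young and OldAcetate to Old, with lines from the lowest to the highest ratio of single libraries and dashed lines at the ratio of the sums over all regions (78.1% and 119%). Old to Young lies below 100% in all 10 genes by mean, and the Tead2 lines cross 100%.

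Per length, the order of the 12 promoter regions ran from the first Tead4 start at 4.18 RPM per kb through Lats1 (3.62), Tead3 (3.57), Yap1 (3.19), Wwtr1 (2.99), the Tead4 internal start (2.95), Amotl2 (2.74), Lats2 (2.73), Ankrd1 (2.60) and Tead2 (2.59) to the first Tead1 promoter region (2.42) and the Tead1 internal start (1.85). The ranges over the 6 libraries overlapped between every pair of neighbours in this order. The internal Tead1 start, at 1.63 to 2.17 RPM per kb, lay below the whole range of 7 other promoter regions. The median of the member promoter regions was 2.84 RPM per kb and that of all promoter regions 3.06. For the regions away from starts the medians were 2.30 and 2.48.

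Each region carries a code of Y, O and AC in the table, which the labels do not define. All 3 letters stood on 25 of the 28 member regions, or 89.3%, and on 80.6% of all regions. The exceptions were a Wwtr1 intron region and a Tead1 exon region without O, and a Tead1 intron region without AC. The first of these, 17.9 to 36.4 kb into Wwtr1 (chr3:57539501-57558000), still held 29.1 and 28.6 RPM in Old, while Young held 38.5 and 36.8 RPM and OldAcetate 29.9 and 38.4 RPM. A code without O therefore did not mean an absence of reads in Old.

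Other genes of the pathway were taken from lists by their promoter regions. The upstream kinases and adaptors of the Hippo pathway, which act on LATS, had promoter regions at 19 of 19 genes (23 regions). None passed the scaled limma test in any comparison. The median changes were -0.06 for Old vs Young, 0.09 for OldAcetate vs Old and 0.04 for OldAcetate vs Young. All promoter regions of the series had medians of -0.0059, 0.051 and 0.048 in the same order. The lowest p in Old vs Young was that of Limd1, a LIM protein that binds LATS, at -0.26 (SE 0.14, limma adjusted p = 0.894), with Mob1a, a LATS coactivator, at 0.24 (SE 0.16, limma adjusted p = 0.914). In OldAcetate vs Old it was a region of the kinase gene Taok3, with 30.0 and 23.9 RPM in Old and 27.2 and 20.4 in OldAcetate, a scaled difference of -0.42 (SE 0.18, limma adjusted p = 0.774). As deposited, 3 of 23 regions passed as lower in Old than in Young, and 0 of 23 passed in the other comparisons. In Old vs Young 9.5% of all regions passed as lower, and 21% of those of 10 kb or more did.

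The partners that compete for or tether TEAD and YAP (VGLL and angiomotin genes) had promoter regions at 4 of 6 genes, with none at Vgll1 and Vgll2. Of the 5 regions, 0 passed the scaled test in any comparison. As deposited, 2 passed as lower in Old than in Young, beside 9.5% of all regions and 21% of those of 10 kb or more. The X-linked Amot region held 26.0 and 27.8 RPM in Young, 30.5 and 24.3 RPM in Old, and 24.2 and 23.8 RPM in OldAcetate. As deposited, Young and Old overlapped there. The scaled difference was 0.37 (SE 0.18, limma adjusted p = 0.894) in Old vs Young and -0.42 (SE 0.18, limma adjusted p = 0.772) in OldAcetate vs Old. Vgll4, which binds TEAD in place of YAP, stood at -0.04 (SE 0.07, limma adjusted p = 0.972) in Old vs Young.

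Further YAP and TAZ target genes had promoter regions at 19 of 19 genes (22 regions), and none passed the scaled test. Their median scaled changes were -0.01, 0.07 and 0.04 for Old vs Young, OldAcetate vs Old and OldAcetate vs Young. The medians of all promoter regions were -0.0059, 0.051 and 0.048. As deposited, 8 of 22 passed as lower in Old than in Young and 0 of 22 passed in the other comparisons. All regions passed at 9.5% in Old vs Young, those of 10 kb or more at 21%, and all regions at 0.0368% without Young replicate 1. The lists were not fitted without single libraries. The Ptpn14 regions are in this list and in that of the upstream genes. Of these, chr1:189700501-189733000 passed as lower as deposited (-0.46, limma adjusted p = 0.021) and is counted in both lists. Ccn1, which encodes a secreted matrix protein, held 61.2 and 44.9 RPM in Young, 47.6 and 40.2 RPM in Old, and 58.5 and 58.0 RPM in OldAcetate. Ccn2, its paralog, held 55.6 and 44.5 RPM in Young, 39.3 and 41.0 RPM in Old, and 51.4 and 53.8 RPM in OldAcetate. For Ccn1 Young overlapped both other groups, and for Ccn2 Old lay below the rest.

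Scaled, Ccn1 stood at 0.09 (SE 0.14, limma adjusted p = 0.967) in Old vs Young and 0.17 (SE 0.14, limma adjusted p = 0.897) in OldAcetate vs Old. Ccn2 stood at 0.04 (SE 0.14, limma adjusted p = 0.988) and 0.15 (SE 0.14, limma adjusted p = 0.919). The lowest p among the targets was that of Fjx1 in Old vs Young, at 0.46 (SE 0.20, limma adjusted p = 0.865), of a region of Arhgef17 in OldAcetate vs Old, at 0.21 (SE 0.10, limma adjusted p = 0.778), and of Rbms3 in OldAcetate vs Young, at 0.28 (SE 0.14, limma adjusted p = 0.964).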

How the data were processed

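H3ac CUT&RUN values of 6 libraries were analysed. The deposited table gives RPM per library for regions that the authors called jointly. It is named as RPKM, but all values were whole multiples of one step per library (tolerance 0.01 reads), so whole reads and totals of 2163351 to 3039481 reads were recovered. Per the labels, mm10, Bowtie2 and Picard were used, and their versions and any spike-in scaling are not given in the sources used here. The study text describes other experiments.

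Genes and starts came from GENCODE release M21 (GRCm38), with regions within 1 kb of a coding start taken as promoter regions. limma 3.58.1 in R 4.3.3 was fitted to log2(RPM + 0.5) over all 24431 regions and 6 libraries, after subtracting the median deviation of each library from the region means, with eBayes trend and robust and Benjamini-Hochberg adjustment at 0.05. Fold changes on this scale understate those of low regions. edgeR 4.0.16 on the reads was an alternative. Tests were checked on simulated data.

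The members and gene lists were chosen with earlier results of these data known. All members are named, and so are Ccn1, Ccn2 and the list genes of lowest p. Tests as deposited without single libraries, and by region length, were added after seeing the data. Same-numbered libraries did not deviate together (r between -0.043 and 0.0093), so the numbers were not treated as pairs.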

Additional observations from a re-analysis of the deposited data

How the results depend on the processing

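Member regions called stayed at 0 in all 3 comparisons under both pseudocounts (0.1 and 1 RPM), quantile scaling, dropping the 25% lowest regions, a threshold of 0.01, eBayes without trend and robust, only the compared libraries, edgeR, each left-out library, and gene bodies extended by 0 or 10 kb. Without scaling the count was 6 in Old vs Young and 0 in the others, and it ranged from 0 to 6 when a library was left out. The 2 libraries a group and 13 to 302 reads per region limit what can be detected. With the replicate number as a block the count was also 0, and the median changes were -0.08, 0.04 and 0.02 as without it; the numbers carry no pairing that the labels state.

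Without scaling, median changes were -0.43 for Old vs Young, 0.28 for OldAcetate vs Old and -0.091 for OldAcetate vs Young. Groups did not overlap at 19 regions for Old vs Young, all lower, beside 60.2% of all regions. For OldAcetate vs Old they did not at 19, all higher, beside 47.1%. For OldAcetate vs Young, 8 were lower, beside 29.8%. Another 3 were higher, and the share of all regions was not taken for that direction. These counts were chosen as a setting after seeing the data. Leaving out libraries moved the medians from -0.15 to 0.025, from -0.0046 to 0.076 and from -0.019 to 0.055, with 0.025 reached without Old replicate 1. Summed levels moved from 70.9% to 80.9%, from 121% to 125% and, for OldAcetate vs Young, from 87.3% to 99.6%.

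Without scaling, signs turned at 9 of 28 regions (Old vs Young), at 11 (OldAcetate vs Old) and at 8 (OldAcetate vs Young). Of these, 5, 4 and 5 were promoter regions, whose values follow. In Old vs Young these became -0.26 for Yap1, -0.32 for Wwtr1, -0.019 for the Tead1 internal start, -0.23 for Tead2 and -0.23 for Lats2. In OldAcetate vs Old they became 0.16 for Yap1, 0.11 for the first Tead1 start, 0.12 for Tead2 and 0.22 for Lats2. In OldAcetate vs Young they became -0.098 for Yap1, -0.042 for Wwtr1, -0.084 for the first Tead4 start, -0.091 for Amotl2 and -0.018 for Lats2. These follow from the removed shift. In OldAcetate vs Young, Tead2 (near 0) also turned to 0.0036 with a pseudocount of 1, 0.041 with quantile scaling and 0.0012 with only the compared libraries, and Yap1 to -0.0040 with quantile scaling.

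Signs also turned when a library was left out, and the cause was not tested. In Old vs Young the ranges were -0.094 to 0.28 for Yap1, -0.12 to 0.19 for Wwtr1, -0.24 to 0.0089 for the first Tead1 start, -0.15 to 0.38 for Tead2, -0.30 to 0.048 for the first Tead4 start and -0.19 to 0.13 for Amotl2. In OldAcetate vs Old they were -0.16 to 0.0020 for Yap1, -0.12 to 0.19 for Wwtr1, -0.32 to 0.064 for the first and -0.019 to 0.11 for the internal Tead1 start, -0.43 to 0.20 for Tead2, -0.019 to 0.33 for the first Tead4 start, -0.013 to 0.11 for Amotl2 and -0.090 to 0.044 for Lats2. In OldAcetate vs Young they were -0.17 to 0.20 for Yap1, -0.030 to 0.17 for Wwtr1, -0.31 to 0.31 for Tead2, -0.089 to 0.15 for the first Tead4 start, -0.19 to 0.027 for Ankrd1 and -0.14 to 0.18 for Amotl2.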
